A study of Homo sapiens with 5 samples.

Results

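The response of MDA-MB-231 cells to CGI-1746 plus LU-102 was read by setting the library of cells given both inhibitors against the mock library, each after 4 h. A gene was compared where its level was at least 1 in either library, and 4189 of the 4202 genes in the table met this. The whole study held 5 libraries of total RNA, of which this comparison uses 2. The other conditions were CGI-1746 alone, LU-102 alone and bortezomib. MDA-MB-231 is an established triple-negative breast cancer line with mesenchymal features, and each group is this same line. The groups differ in the agents named, and each is also a separate culture and library. CGI-1746 is labelled a BTK inhibitor, and the study's title describes it as an allosteric inhibitor of the proteasome. LU-102 is known as an inhibitor of the trypsin-like sites of the proteasome, and bortezomib, a proteasome inhibitor in clinical use, was the control for pathways changed by proteasome inhibition. Mock cells received no inhibitor, and doses were not stated. With 1 library for each condition there is no spread between replicates to set a difference against, and no test was made.

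The proteasome degrades proteins tagged with ubiquitin. When misfolded proteins accumulate, the factor HSF1 is known to switch on genes for cytosolic chaperones, which refold or hold such proteins. NRF2, itself a proteasome substrate, drives genes against oxidative stress, and the factor MTF1 drives the metallothioneins when free zinc rises.

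Levels are the authors' normalised signal per gene, and no source used here states how it was normalised. From short single-exon RNAs it was inferred that the signal behaves as a read count scaled for gene length and for the library. A ratio is given as log2 of (level + 1) in the combination over (level + 1) in mock, which understates the change of genes with low levels. The median ratio over all genes compared was 0.03, and the ratios of genes between the 5th and 95th percentiles ran between -0.21 and 0.34. At 2-fold, 7 genes were higher with the combination (0.167% of those compared) and 2 were lower (0.0477%). At 1.5-fold, 32 were higher (0.764%) and 8 lower (0.191%), of which 19 and 5 were protein-coding. With levels scaled to the sum over protein-coding genes, the split at 1.5-fold was 25 higher and 15 lower, and that at 2-fold was 6 higher and 3 lower. The 1.5-fold split was 25 and 11 under median-of-ratios scaling. Over mock, the all-gene median log2 ratio was -0.02 for CGI-1746, -0.06 for LU-102 and -0.98 for bortezomib, and bortezomib lay above mock for only 318 of the 4189 genes, so a gene lower with bortezomib is the usual case here.

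The labelled cell line was checked against its markers. The mesenchymal gene VIM, for vimentin, had a level of 90.3 with the combination and 92.1 in mock, and 14 of 19 mesenchymal genes were compared, with summed levels of 265 and 257. KRT18, a keratin of simple epithelia, had a level of 37.6 with the combination and 35.5 in mock, and the 6 of 15 luminal and epithelial genes compared summed to 82.7 and 71.5. Of 14 blood cell markers only CD68, a lysosomal protein, was compared, at 8.68 with the combination and 7.32 in mock, and none of 6 endothelial markers was. Among the genes nearest the level minimum, PGPEP1 entered with 1.02 in both libraries, while IL6 stayed outside with 0.858 and 0.990.

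**Figure D1:**
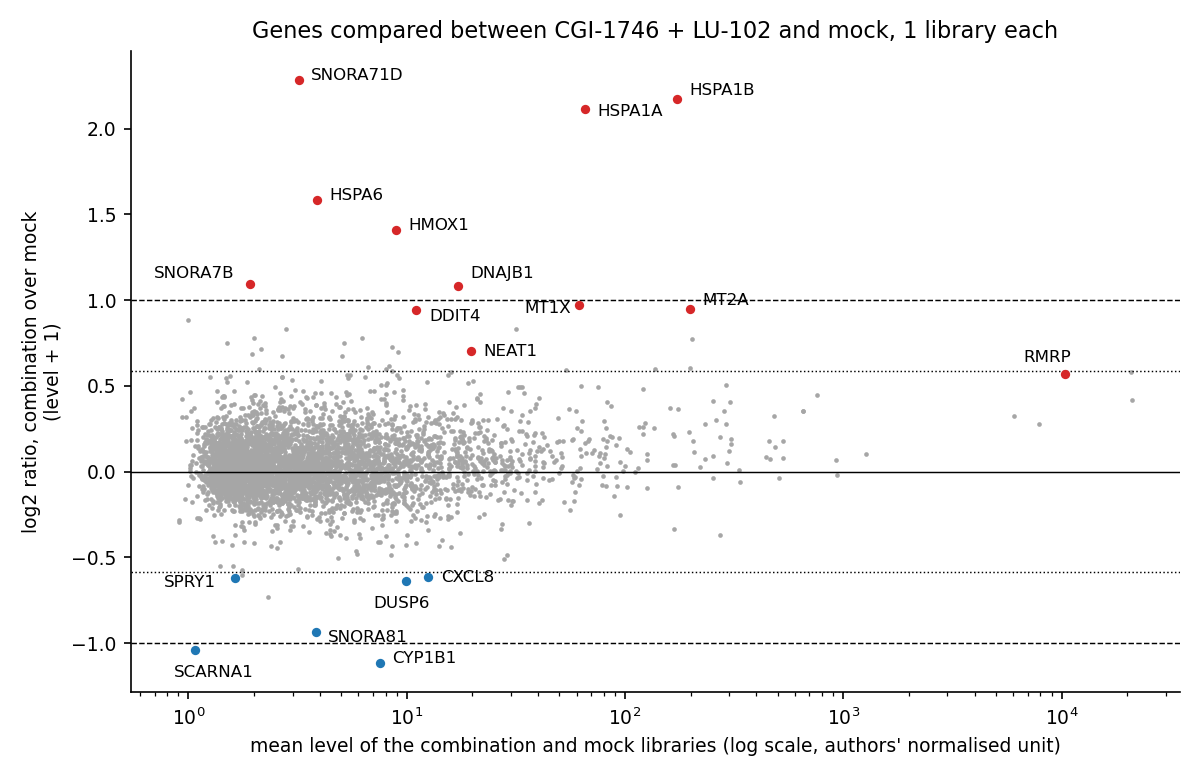
Each point is 1 of the genes compared, with the mean level of the combination and mock libraries on a log axis and the log2 ratio of combination over mock on the other. Dashed lines mark 2-fold and dotted lines 1.5-fold. HSPA1B and HSPA1A stand apart at levels above 20, while SNORA71D, SNORA7B and SCARNA1 lie where few reads were counted.

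The 3 largest log2 ratios among mRNAs belonged to cytosolic heat shock genes. HSPA1B and HSPA1A, neighbouring genes for the inducible HSP70, were each more than 4-fold higher with the combination, and HSPA6, a strictly stress-inducible HSP70, was close behind. DNAJB1, an HSP40 that delivers clients to HSP70, also passed 2-fold. Of the 36 heat shock genes listed, 26 were compared, and 23 of these lay above the all-gene median.

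HSPA1B (chr6:31827738-31830254 in GRCh38.p14) had a level of 284 with the combination, 136 with CGI-1746, 79.7 with LU-102, 99.5 with bortezomib and 62.2 in mock. The combination was 4.56-fold above mock in level, with a log2 ratio of 2.17. HSPA1A had levels of 107, 52.7, 31.6, 38.0 and 24.0 in the same order of libraries, and a log2 ratio of 2.11. For both genes the combination stood highest of the 5 libraries, CGI-1746 alone next, and mock lowest. As single-exon genes they allow reads to be estimated: about 12138 with the combination and 2638 in mock for HSPA1B, and about 4361 and 968 for HSPA1A. The counting intervals of the level ratios were 4.37 to 4.76 for HSPA1B and 4.16 to 4.79 for HSPA1A at 95%. These exact intervals cover counting error only, not differences between cultures.

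HSPA1A and HSPA1B each have 1923 coding bases, identical at 1919 positions (99.8%), so reads can be assigned to either copy only in part. The level of HSPA1B over that of HSPA1A was 2.65 with the combination, 2.57 with CGI-1746, 2.52 with LU-102, 2.62 with bortezomib and 2.60 in mock. The split between the copies thus lay in a narrow range in every library, and the 2 ratios to mock are not independent measurements.

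HSPA6 had levels of 6.30 with the combination, 2.92 with CGI-1746, 1.91 with LU-102, 4.44 with bortezomib and 1.43 in mock, with a log2 ratio of 1.59 for combination over mock. It rested on about 252 reads with the combination and 57 in mock, a level ratio of 4.40 with a counting interval of 3.28 to 5.95. The larger ratio on levels than on the log2 scale comes from the pseudocount of 1, which weighs on a gene this low. DNAJB1 had levels of 23.7 with the combination, 15.1 with CGI-1746, 11.4 with LU-102, 4.56 with bortezomib and 10.7 in mock, a log2 ratio of 1.08. DNAJB1 was lower with bortezomib than in mock, as most genes were, whereas the 3 HSP70 genes were higher.

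Behind these 4, the chaperone genes differed by less than 1.5-fold on the log2(level + 1) scale. On levels alone SERPINH1 was 1.57-fold and BAG3 1.52-fold higher. SERPINH1, the collagen chaperone HSP47, was at 10.5 with the combination and 6.68 in mock, a log2 ratio of 0.58. HSP90AA1, the inducible cytosolic HSP90, was at 37.9 and 26.7 (log2 ratio 0.49). HSPH1, a nucleotide exchange factor of HSP70, BAG3, a cochaperone that links HSP70 to selective autophagy, and HSPB1, a small heat shock protein, each had a log2 ratio of 0.40. HSPA8, the constitutive HSC70, had the highest level of the list at 539 with the combination and 429 in mock (0.33), and HSP90AB1, the constitutive HSP90, was at 290 and 252 (0.20). The remaining compared members were DNAJB2, DNAJA1, STIP1, CDC37, AHSA1, HSPA4, FKBP4, CHORDC1, DNAJB6, ST13, CACYBP, DNAJA2, HSF1, HSPA14 and PTGES3, with log2 ratios between 0.25 and 0.01. HSF1 mRNA itself was at 1.97 with the combination and 1.93 in mock.

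The list's median log2 ratio was 0.22, against 0.03 for all genes compared. The medians of the same list over mock were 0.07 for CGI-1746, where all genes had -0.02, and -0.06 for LU-102, where all genes had the same -0.06. These comparisons share the mock library. Its summed level was 1428 with the combination and 921 in mock, of which the HSPA1 pair carried the larger part of the difference.

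Chaperones of other compartments differed less. In the endoplasmic reticulum, 18 of 21 genes were compared, with a median of 0.09. DNAJB9 was at 4.56 with the combination and 3.05 in mock (0.46) and SDF2L1, a partner of the lumenal HSP70, at 2.47 and 1.55 (0.45), while HSPA5, that lumenal HSP70 itself, was at 172 and 167 (0.04). Among 11 mitochondrial chaperone and stress genes the median was 0.12, and HSPE1, the HSP10 partner of HSP60, had 0.32. The chaperonin and prefoldin genes, 10 compared, had a median of 0.09 and a range of -0.06 to 0.15.

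Promoter stretches of the genes furthest apart are shown because they carry the letters to which HSF1 is known to bind. Each is the 200 bases before a transcript start in RefSeq, GRCh38.p14, written 5′ to 3′ along the gene. Capitals mark GAANNTTC or TTCNNGAA, a pair of opposed GAA units that forms the core of a heat shock element and reads the same on both strands. DNAJB1 has 3 windows in the table and the one shown holds the most matches.
HSPA1B promoter, chr6:31827538-31827737, plus strand: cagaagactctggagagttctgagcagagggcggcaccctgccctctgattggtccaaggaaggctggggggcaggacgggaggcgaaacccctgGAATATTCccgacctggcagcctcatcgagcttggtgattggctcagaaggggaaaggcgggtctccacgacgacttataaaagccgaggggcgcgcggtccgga
HSPA1A promoter, chr6:31815343-31815542, plus strand: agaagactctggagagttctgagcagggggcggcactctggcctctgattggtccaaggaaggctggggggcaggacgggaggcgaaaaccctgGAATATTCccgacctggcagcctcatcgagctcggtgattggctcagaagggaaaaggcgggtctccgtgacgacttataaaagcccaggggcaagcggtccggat
HSPA6 promoter, chr1:161524340-161524539, plus strand: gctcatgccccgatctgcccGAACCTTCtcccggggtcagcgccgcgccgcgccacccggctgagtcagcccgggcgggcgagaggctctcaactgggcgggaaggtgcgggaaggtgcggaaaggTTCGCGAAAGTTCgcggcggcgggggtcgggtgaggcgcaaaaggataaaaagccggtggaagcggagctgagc
DNAJB1 promoter, chr19:14518398-14518597, minus strand: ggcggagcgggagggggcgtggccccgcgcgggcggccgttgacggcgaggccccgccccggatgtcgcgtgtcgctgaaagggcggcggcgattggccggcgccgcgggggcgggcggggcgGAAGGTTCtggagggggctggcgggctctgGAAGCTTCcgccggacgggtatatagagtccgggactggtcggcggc
The HSPA1B and HSPA1A stretches hold the same 8 letters, beginning 105 and 106 bases before the start. HSPA6 has 3 matches, of which the 2 nearer the start overlap, and DNAJB1 has 2.

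Over the full windows, which run from 250 bases before the start to 50 after it, a match was found in 14 of 31 windows of the heat shock list (45.2%). The share was 35.0% of 20 windows among genes at least 1.5-fold higher, 28.6% of 7 windows among genes at least 1.5-fold lower, 9.88% of 4554 windows of all genes compared, and 13.5% of all 35116 windows in the table. The list was chosen for HSF1, so its share describes the list. Of the 16 genes at least 1.5-fold higher that have a window, 6 had a match, against 413 of 3333 genes compared. HSPA1B, HSPA1A, HSPA6 and DNAJB1, shown above, are among the 6, so the share of the higher genes is not separate from that of the list. A match is a description of letters and says nothing of binding in these cells.

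Metallothioneins, the small cysteine-rich proteins that hold zinc and copper, were a further group. MT1X, MT2A and MT1E were each between 1.5-fold and 2-fold higher with the combination, and the zinc exporter SLC30A1, another MTF1 target, was at 42.3 with the combination and 41.6 in mock. Of 12 genes listed, 6 were compared, and 5 of these lay above the all-gene median.

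MT2A had levels of 261 with the combination, 168 with CGI-1746, 179 with LU-102, 62.1 with bortezomib and 135 in mock, a log2 ratio of 0.95. MT1X had 81.6, 59.8, 48.2, 22.0 and 41.1 in the same order, a log2 ratio of 0.97, and MT1E had 257, 196, 161, 39.6 and 150, a log2 ratio of 0.77. For each of these the combination was highest and bortezomib lowest, and both single inhibitors lay between the combination and mock. MT1F was at 4.97 with the combination, 3.20 with CGI-1746, 5.08 with LU-102 and 3.14 in mock (0.53), and MT1A at 1.45 with the combination and 1.17 in mock (0.17). The list's median was 0.65 and its summed level 648 with the combination and 371 in mock. Metallothionein genes are close copies, so the share of reads given to each is uncertain.

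The stretches of MT1X and MT2A, also from RefSeq, GRCh38.p14, are shown for their metal response elements, the letters MTF1 is known to bind. Capitals mark TGCGCNC or TGCACNC on either strand.
MT1X promoter, chr16:56682270-56682469, plus strand: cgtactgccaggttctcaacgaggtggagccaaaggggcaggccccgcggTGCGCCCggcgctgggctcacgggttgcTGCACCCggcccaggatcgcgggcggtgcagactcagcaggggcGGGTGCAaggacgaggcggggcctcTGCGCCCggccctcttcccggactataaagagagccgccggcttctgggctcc
MT2A promoter, chr16:56608384-56608583, plus strand: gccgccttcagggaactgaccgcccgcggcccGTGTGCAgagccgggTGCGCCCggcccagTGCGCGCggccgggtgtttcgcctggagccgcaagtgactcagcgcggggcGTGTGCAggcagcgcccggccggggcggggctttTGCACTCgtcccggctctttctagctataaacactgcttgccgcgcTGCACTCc
MT1X holds 4 such matches and MT2A 6 in the 200 bases shown, and MT2A has 8 in its full window. At least 2 matches were found in each of the 3 metallothionein and transporter windows of the list, against 12.5% of the windows of all genes compared. The list was chosen for metal response, so its share describes the list. At least 1 match was in 35.0% of 20 windows of genes at least 1.5-fold higher and in 39.6% of all 4554. The same 3 windows each held at least 2 copies of GCGTG or CACGC, the dioxin response letters, against 20.9% of the windows of all genes compared.

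Genes against oxidative stress were led by HMOX1, heme oxygenase, which breaks down heme. HMOX1 (chr22) had a level of 13.5 with the combination, 9.30 with CGI-1746, 5.33 with LU-102, 7.80 with bortezomib and 4.44 in mock, a log2 ratio of 1.41. It rested on about 420 reads with the combination and 140 in mock. FTL and FTH1, the chains of the iron store ferritin, were also higher: FTL was at 240 with the combination and 157 in mock (0.61), FTH1 at 46.6 and 34.3 (0.43). SQSTM1, the autophagy receptor p62, was at 11.8 and 8.81 (0.39) and SRXN1, which repairs oxidised peroxiredoxins, at 22.1 and 17.9 (0.29).

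Other NRF2 targets stood closer to mock. NQO1, a quinone reductase, was at 6.46 with the combination and 6.21 in mock, TXNRD1, thioredoxin reductase, at 5.52 and 5.28, and GCLM, of glutathione synthesis, at 6.53 and 6.23. SLC7A11, the cystine importer, was at 4.05 and 4.91 (-0.23). Of 31 genes listed, 20 were compared, with a median of 0.19, and 16 lay above the all-gene median. The median was 0.09 after a fit on GC content, length and level was taken off. The genes at the top of the list were those of heme and iron handling.

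DDIT4, an inhibitor of mTORC1 signalling that many stresses induce, had levels of 14.9 with the combination, 14.1 with CGI-1746, 8.42 with LU-102, 2.70 with bortezomib and 7.28 in mock, a log2 ratio of 0.94. CGI-1746 alone stood near the combination and LU-102 alone near mock. The ATF4 and CHOP list to which DDIT4 belongs had 17 genes compared and a median of 0.09, and 9 of them lay above the all-gene median. CEBPB, a leucine zipper factor, had a log2 ratio of 0.55, PPP1R15A, which restores translation after stress, 0.46, ATF5, a factor related to ATF4, 0.28, and DDIT3, for CHOP itself, 0.25. At the other end of that list PPP1R15B, the constitutive relative of PPP1R15A, had -0.26, SLC7A11 -0.23 and XPOT, a tRNA exporter, -0.16. IFIT2, an interferon-induced RNA-binding protein, had levels of 6.45 with the combination, 6.68 with CGI-1746, 3.42 with LU-102, 0.417 with bortezomib and 3.67 in mock, a log2 ratio of 0.68. Of 11 interferon-induced genes compared, ISG15, a ubiquitin-like modifier, came next with 0.52, and IRF1, an interferon response factor, was lowest with -0.27.

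**Figure D2:**
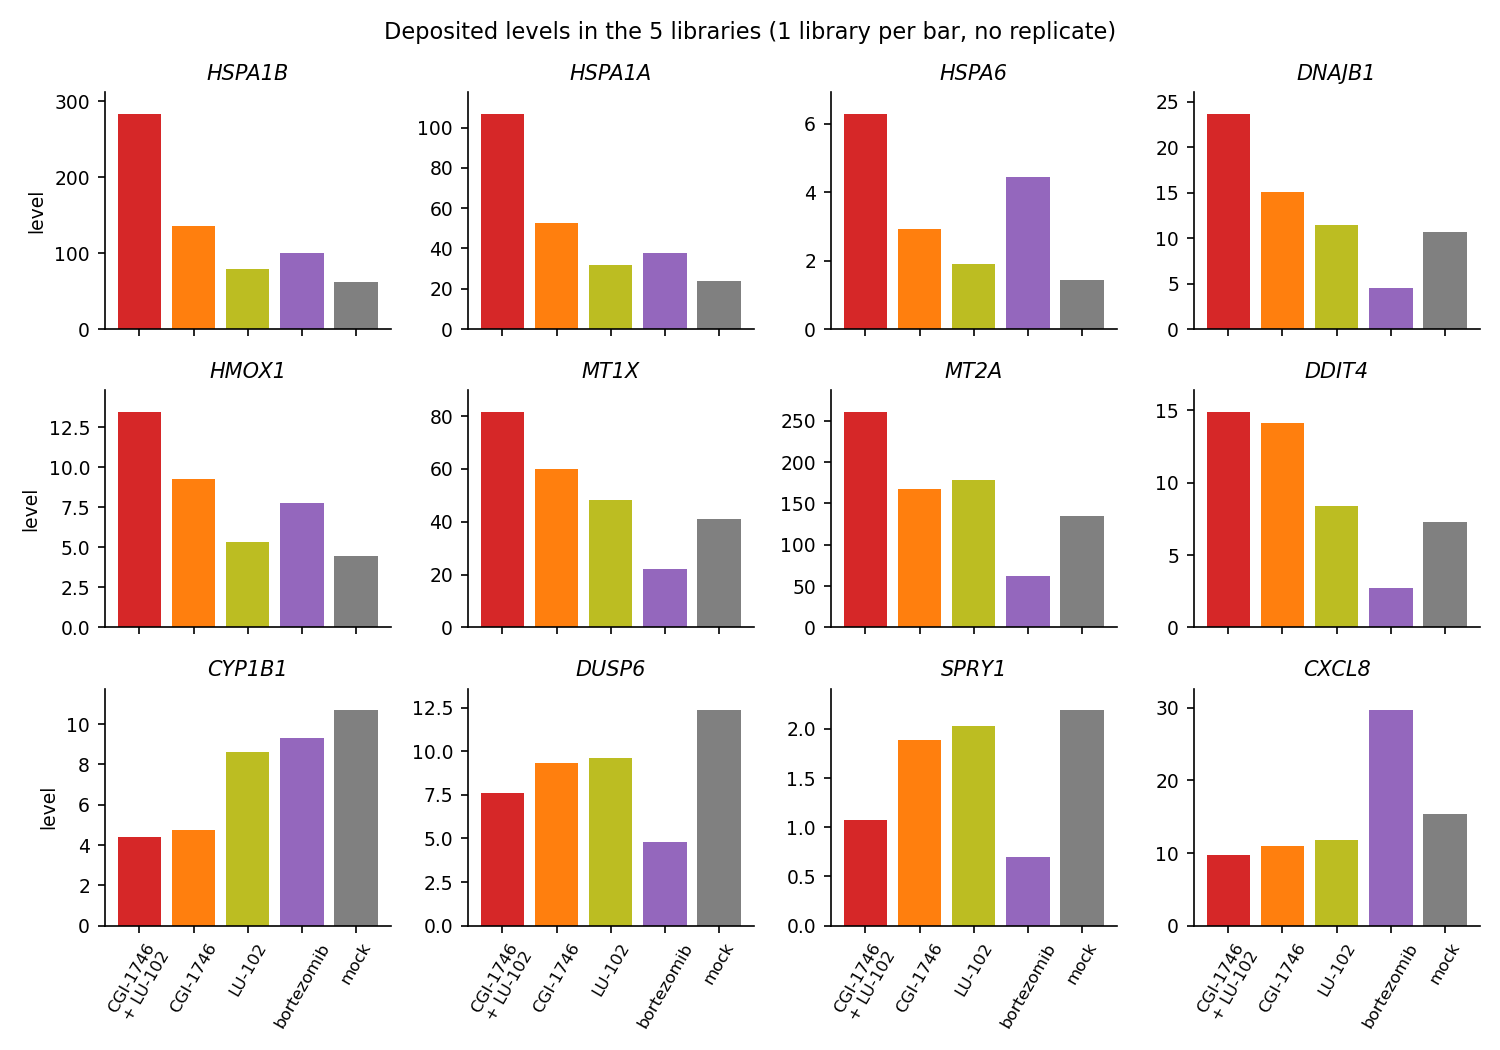
Bars give the deposited level of 12 genes in the combination, CGI-1746, LU-102, bortezomib and mock libraries, 1 library each, on linear axes that start at 0. The HSP70 genes, HMOX1 and the metallothioneins were highest with the combination, DDIT4 was almost as high with CGI-1746 alone, and CYP1B1 was low in both libraries with CGI-1746.

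Genes of the proteasome itself differed little, as did most genes. Of 42 subunit genes, 34 were compared, and their log2 ratios ran between -0.10 and 0.34. The median was 0.07, against 0.03 for all genes compared. None differed by 1.5-fold, a size that only 0.764% of all genes passed on the higher side and 0.191% on the lower. PSMB6, the caspase-like subunit, was at 16.4 with the combination and 12.8 in mock (0.34), and PSMB5, the chymotrypsin-like subunit that bortezomib binds, at 6.66 and 6.57 (0.02). PSMC4, an ATPase of the regulatory particle, was at 6.97 and 5.55 (0.28). UBB, which encodes chains of ubiquitin, was at 300 with the combination and 290 in mock (0.05).

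At the other end of the range stood CYP1B1, a cytochrome P450 driven by the aryl hydrocarbon receptor, and negative regulators of ERK signalling. CYP1B1 (chr2) had a level of 4.39 with the combination, 4.76 with CGI-1746, 8.64 with LU-102, 9.31 with bortezomib and 10.7 in mock, a log2 ratio of -1.12 for combination over mock. Both libraries with CGI-1746 were low and the 3 without it were high. The estimated reads were about 390 with the combination and 950 in mock. Of the 6 aryl hydrocarbon receptor genes compared, TIPARP, which feeds back on the receptor, was at 1.35 with the combination and 1.92 in mock (-0.31), and AHR, the receptor, at 1.47 and 2.08 (-0.32). IL24, NFE2L2 and NQO1, which other lists hold too, had -0.49, -0.07 and 0.05. The median of the 6 was -0.32.

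ERK feedback genes are transcribed when the kinase ERK is active, and several of their products then dampen it. DUSP6, a phosphatase of ERK, had levels of 7.59 with the combination, 9.31 with CGI-1746, 9.61 with LU-102, 4.78 with bortezomib and 12.4 in mock, a log2 ratio of -0.64. SPRY1, a Sprouty inhibitor of receptor tyrosine kinase signalling, had 1.07, 1.89, 2.03, 0.702 and 2.19 in the same order (-0.62). PHLDA1, a pleckstrin-homology protein, was at 22.9 with the combination and 32.9 in mock (-0.51), SPRY2 at 4.79 and 7.07 (-0.48), the cytokine IL11 at 13.3 and 18.5 (-0.44) and DUSP4, another phosphatase, at 3.80 and 5.09 (-0.34). For DUSP6 and SPRY1 the combination lay below either single inhibitor. Bortezomib lay lower still, as it did below mock for most genes.

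The list as a whole was uneven. Of 20 genes, 15 were compared, with a median of -0.11, and 2 lay above the all-gene median. The same list had medians of -0.15 with CGI-1746 and -0.08 with LU-102 over the shared mock library, against -0.02 and -0.06 for all genes. As a list it was thus not lower with the combination than with CGI-1746 alone. DUSP5, a nuclear ERK phosphatase, went the other way at 11.3 with the combination, 7.40 with LU-102 and 7.86 in mock (0.48), and CGI-1746 alone had a log2 ratio of 0.55 over mock. MYC, a growth factor response gene, had 0.06, and CCND1, for cyclin D1, DUSP7, ETV4, FOSL1 and EPHA2 lay between -0.17 and -0.02. SPRY4 and IER3 differed by less than 0.01 in log2 from mock. The immediate early genes, 17 compared, had a range of -0.27 for FOSB to 0.26 for JUNB.

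Cytokine and matrix-linked genes were also among the lowest. CXCL8, the neutrophil chemokine IL-8, had levels of 9.70 with the combination, 11.0 with CGI-1746, 11.8 with LU-102, 29.7 with bortezomib and 15.4 in mock, a log2 ratio of -0.62. EDN1, for the vasoconstrictor endothelin-1, was at 1.20 with the combination and 2.34 in mock (-0.60), on about 41 and 80 reads. Of 13 NF-kB targets compared the median was -0.15 and 5 lay above the all-gene median, CXCL2, a related chemokine, being highest at 0.25. Of 15 YAP and TEAD targets compared the median was -0.10 and 3 lay above the all-gene median. CCN2, connective tissue growth factor, was at 239 with the combination and 309 in mock (-0.37), while CCN1, its relative, was at 509 and 461 (0.14).

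Genes of G2 and mitosis lay below the all-gene median almost throughout, by a small amount. Of 33 genes, 27 were compared, and 1 lay above the all-gene median, UBE2C, the ubiquitin-conjugating enzyme of the anaphase-promoting complex, at 0.07. None differed by 1.5-fold, which only 0.764% of all genes did on the higher side and 0.191% on the lower. The median was -0.15. AURKA, a mitotic kinase, was at 4.18 with the combination and 5.70 in mock (-0.37), CCNA2, for cyclin A2, at 15.2 and 19.8 (-0.36), and MKI67, the proliferation antigen Ki-67, at 19.5 and 23.6 (-0.26). The same list had medians of -0.11 with CGI-1746 and -0.17 with LU-102 over mock, against -0.02 and -0.06 for all genes, so all 3 stood below the shared mock library. In bulk RNA, fewer cells in these phases and less of these RNAs per cell cannot be told apart. Genes of G1 and S, 20 compared, had a median of 0.02.

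**Figure D3:**
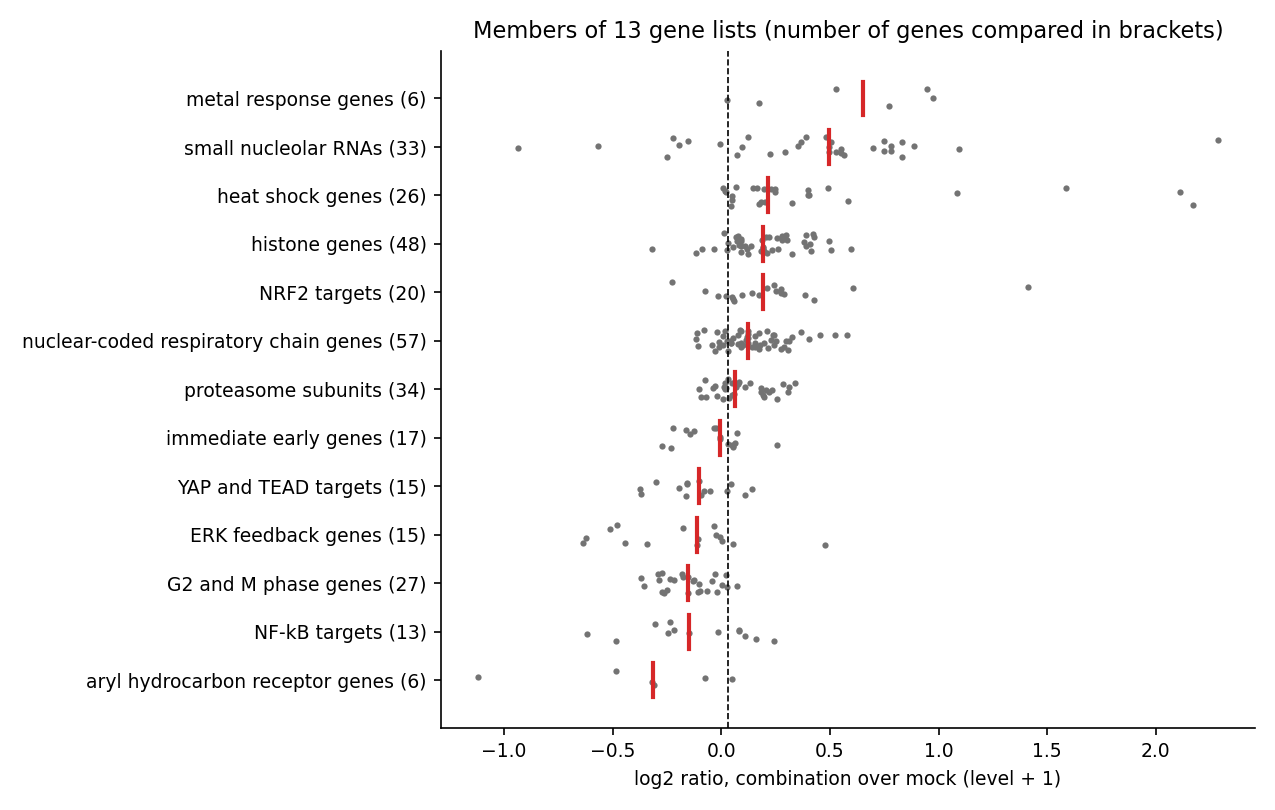
Each point is a gene of a list and its log2 ratio of combination over mock, the red bar is the list's median, and the dashed line is the median of all genes compared, 0.03. Metal response, small nucleolar RNA and heat shock genes have the highest medians, and G2 and M phase genes form a narrow group below the line.

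Noncoding RNAs made up 13 of the 32 genes at least 1.5-fold higher and 3 of the 8 at least 1.5-fold lower, an entry without annotation counted among the 3. Over all 4189 genes compared, 3910 were protein-coding. Most are small nucleolar RNAs, which guide chemical changes of ribosomal RNA, and their levels rest on few reads. SNORA71D was the highest gene of all, at a level of 5.97 with the combination, 2.56 with CGI-1746, 2.97 with LU-102, 43.2 with bortezomib and 0.430 in mock. These are 14, 6, 7, 111 and 1 reads. The level ratio of combination over mock was 13.9, with a counting interval of 2.11 to 587, and the log2 ratio was 2.28. SNORA7B rested on 7 reads with the combination and 2 in mock (log2 ratio 1.10), and SCARNA1, a small Cajal body RNA that was the second gene past 2-fold on the lower side, on 1 and 5 (-1.04). The counting intervals of the level ratio, 0.660 to 34.2 for SNORA7B and 0.00419 to 1.77 for SCARNA1, include 1. SNORA81, also 1.5-fold lower, had about 7 reads with the combination and 16 in mock, and C15orf54, the entry without annotation, was at 1.49 and 3.14 (-0.73).

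SNORA71D lies beside its relatives SNORA71A and SNORA71C on chromosome 20. Their sequences from GENCODE 29, GRCh38, are shown because reads of near copies can be split between them. Capitals mark bases that differ from SNORA71D in an alignment.
SNORA71D, chr20:38433865-38433998, minus strand: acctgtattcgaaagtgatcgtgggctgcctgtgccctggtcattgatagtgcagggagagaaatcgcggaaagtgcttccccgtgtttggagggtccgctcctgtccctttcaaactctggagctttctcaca
SNORA71C, chr20:38429670-38429803, minus strand: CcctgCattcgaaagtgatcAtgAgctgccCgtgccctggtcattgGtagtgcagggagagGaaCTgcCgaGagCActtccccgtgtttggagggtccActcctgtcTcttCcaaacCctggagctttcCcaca
SNORA71A, chr20:38427309-38427442, minus strand: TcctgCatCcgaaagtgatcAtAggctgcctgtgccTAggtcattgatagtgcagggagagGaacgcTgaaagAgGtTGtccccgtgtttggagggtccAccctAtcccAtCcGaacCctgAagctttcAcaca
SNORA71C matches SNORA71D at 116 of 134 aligned positions (86.6%) and SNORA71A at 113 of 136 (83.1%). SNORA71A had 5 reads with the combination and 2 in mock, and SNORA71C had 5 and 6, so the difference seen for SNORA71D was not seen for SNORA71C.

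Reads of 51 short single-exon RNAs were estimated from level and length, to the nearest 0.5. For some, among them RMRP, RN7SL1, RN7SL2, RN7SK, RPPH1 and SCARNA13, the estimates did not fall within 0.1 of a step and are approximate. The counting interval of the level ratio lay above 1 for 15 of the 51 and below 1 for 1. In mock, 26 had fewer than 20 reads. The one below was SCARNA13, with about 405 reads with the combination and 479.5 in mock, where the 0.5 comes from the rounding of the estimate. Among abundant RNAs, RMRP, the RNA of ribonuclease MRP, had a level ratio of 1.48, RN7SL1, a 7SL RNA of the signal recognition particle, 1.33, RN7SK, the RNA that restrains P-TEFb, 1.25, and RPPH1, the RNA of ribonuclease P, 1.21. RN7SL2, the other main 7SL gene, had about 126191 reads with the combination and 83570 in mock. All rest on an estimated 29970.5 reads or more in mock, so counting error is small. The spread between cultures or library preparations is unknown. SNORD3A, the U3 RNA of ribosomal RNA processing, had about 150.5 reads with the combination and 82 in mock, for a level ratio of 1.82 (interval 1.38 to 2.41). The small nucleolar RNAs, 33 compared, had a median log2 ratio of 0.50 and 26 lay above the all-gene median.

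**Figure D4:**
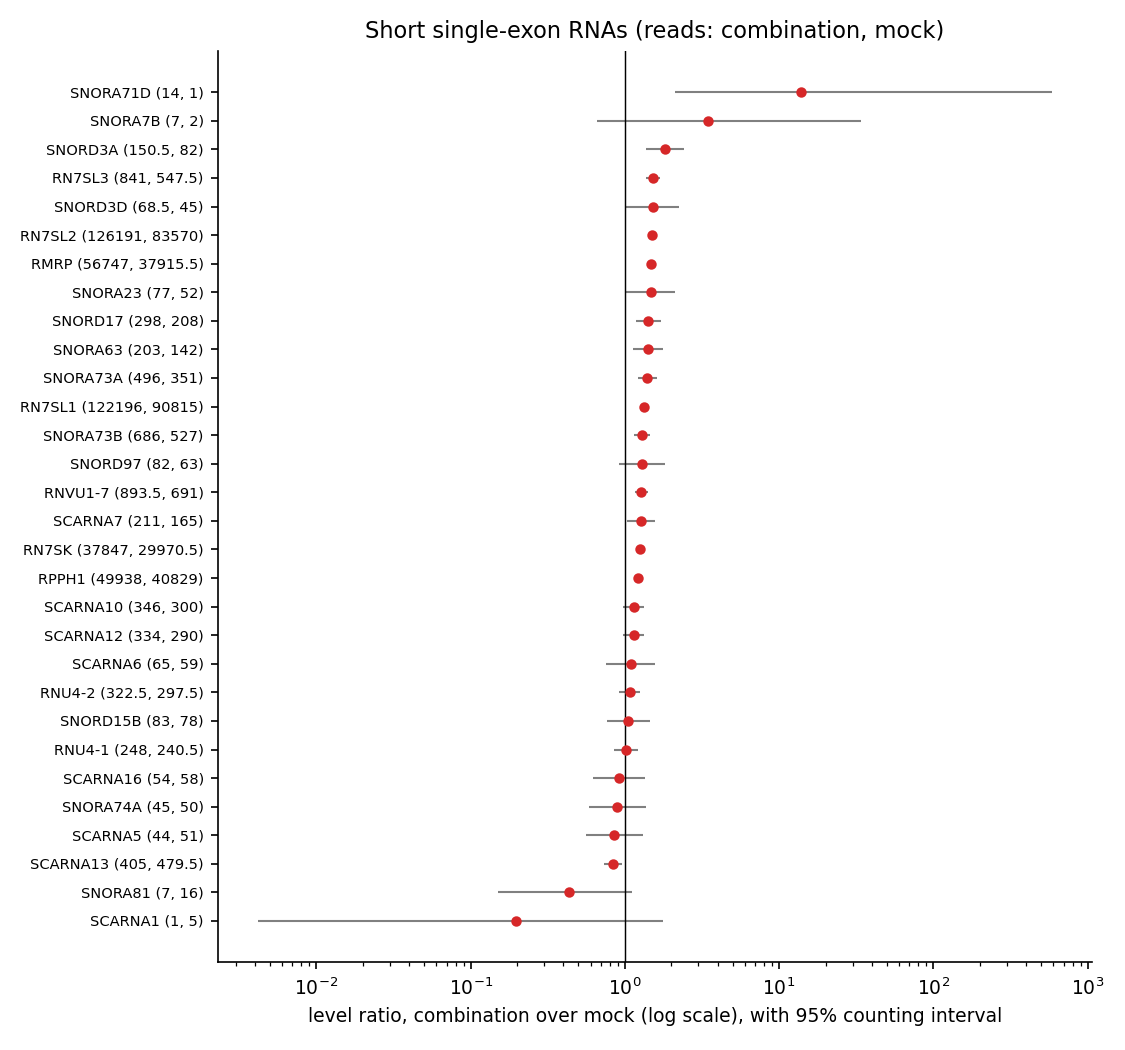
Points are level ratios of combination over mock, on a log axis, for short single-exon RNAs with at least 20 reads in mock and SNORD3A. SNORA71D, SNORA7B, SCARNA1 and SNORA81, with fewer reads, are added, while SNORA71A and SNORA71C are not drawn. Lines are exact counting intervals at 95%, and numbers in brackets are estimated reads with the combination and in mock. SNORA71D, SNORA7B and SCARNA1 have the widest intervals, and RN7SL2 and RMRP intervals too narrow to see.

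NEAT1, the long RNA that builds nuclear paraspeckles, is a long RNA and not GC-rich. NEAT1 had levels of 24.7 with the combination, 22.9 with CGI-1746, 17.8 with LU-102, 19.4 with bortezomib and 14.8 in mock, a log2 ratio of 0.70. All 4 treated libraries lay above mock. MALAT1, its abundant neighbour on chromosome 11, was at 458 with the combination and 432 in mock (0.09). The 14 paraspeckle and nuclear RNA genes compared, with NEAT1 and MALAT1 among them, had a median of 0.07.

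Across protein-coding genes the log2 ratio followed the GC content and the length of the transcript. Spearman's rho over 3904 genes was 0.62 with GC content and -0.39 with length, given as a description since all points share the same 2 libraries. In 5 equal groups of GC content the median log2 ratio was -0.09 in the lowest group and 0.17 in the highest, and 9 of the 19 protein-coding genes at least 1.5-fold higher were in the highest. In 5 equal groups of length it was 0.11 among the shortest and -0.05 among the longest, and 12 of the 19 were among the shortest. Over mock, rho with GC content was 0.37 for CGI-1746 and 0.70 for LU-102, so the trend was also present in these comparisons, which share the mock library. Bortezomib was not examined in this way.

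**Figure D5:**
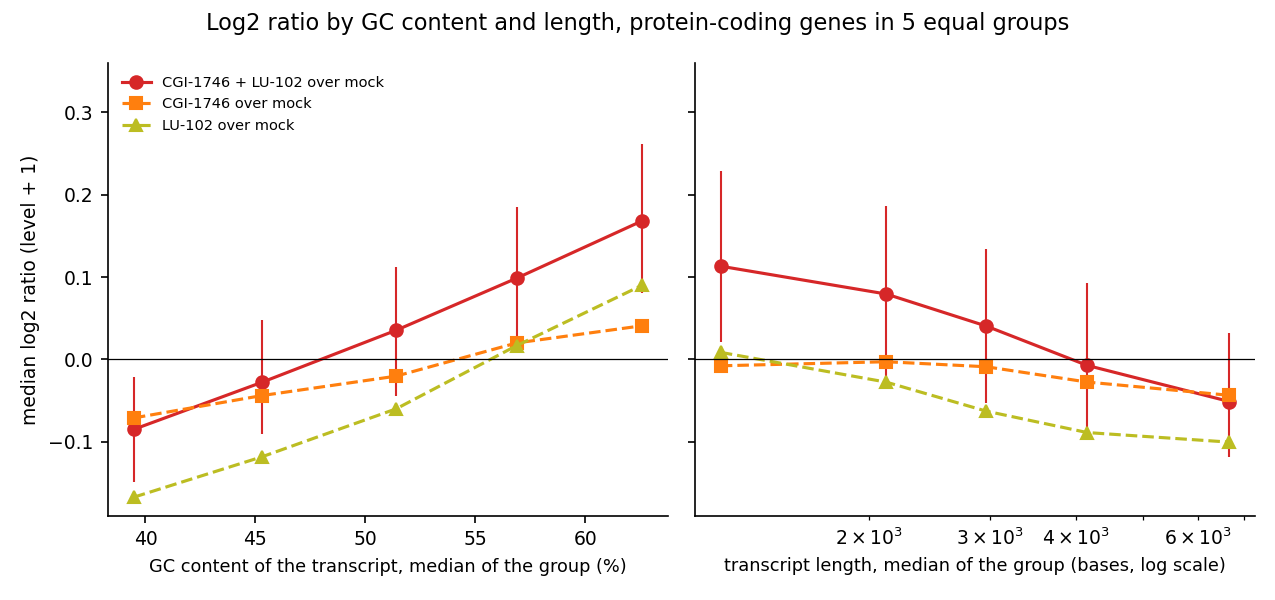
Protein-coding genes are split into 5 equal groups by GC content (left) and transcript length (right, log axis), and points give each group's median log2 ratio over mock for the combination, CGI-1746 and LU-102. Red lines span the 25th to 75th percentiles of the combination. The medians climb with GC content in each comparison and decline with length for the combination and LU-102. For CGI-1746 they differ less by length, with -0.01 among the shortest and -0.04 among the longest.

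The genes just past 1.5-fold with no stress list to their name were mostly short and GC-rich. ROMO1, a small mitochondrial membrane protein, was at 10.9 with the combination and 6.18 in mock (0.72) and has 498 bases and 62.1% GC. SMIM29 (0.72), MICOS13, of the mitochondrial cristae complex (0.69), PAXX, of DNA end joining (0.67), CCDC85B (0.62) and PPDPF (0.60) each have a GC content above 64%. TCEAL3 was at 2.74 with the combination and 1.47 in mock (0.60), with 52.1% GC. The median GC content of the 19 protein-coding genes was 58.8% and their median length 1221 bases, against 51.4% and 2960 bases for all.

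After a least squares fit on GC content, log2 length and log2 level was taken off, 17 genes were at least 1.5-fold higher and 9 lower of 4141 with annotation. HSPA1A kept 1.95, HSPA6 1.46, HMOX1 1.27, DNAJB1 0.99, MT1X 0.79, DDIT4 0.79, MT2A 0.68 and CYP1B1 -1.07. NEAT1 stood at 0.81 after the fit and DUSP6 at -0.63. ROMO1, SMIM29, MICOS13 and PAXX came below 1.5-fold, at 0.48, 0.51, 0.46 and 0.43.

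The fit moved the medians of the lists by different amounts. The all-gene median itself was 0.03 as deposited and 0.00 after the fit. The 48 histone genes compared had a median of 0.19 as deposited and 41 lay above the all-gene median, with H2AC13 at 65.1 with the combination and 42.8 in mock (0.60). Their median GC content was 57.4% and median length 543 bases, and the adjusted median was 0.00 over the 42 with annotation. The list was drawn by symbol and includes some replication-independent members. Nuclear-coded respiratory chain genes, a list added after values were seen, had 57 compared, a median of 0.12 as deposited and 0.07 adjusted, with COX8A, a cytochrome oxidase subunit, highest at 19.4 and 12.7 (0.58). Cytosolic ribosomal protein genes, 78 compared, had 0.08 and 0.01. Under scaling to the protein-coding sum the deposited medians were 0.09 for histone genes and -0.02 for ribosomal protein genes. The adjusted median was 0.14 for heat shock genes, against 0.22 as deposited, and 0.46 for metal response genes, against 0.65. NRF2 targets had 0.09 adjusted and 0.19 as deposited, ATF4 and CHOP targets 0.03 and 0.09, and small nucleolar RNAs 0.30, over 29 with annotation, and 0.50. Mitochondrial chaperone and stress genes had 0.07 adjusted and 0.12 as deposited, endoplasmic reticulum chaperones 0.05 and 0.09, and chaperonin and prefoldin genes 0.03 and 0.09. Proteasome subunits had 0.07 either way, and so lay further above the all-gene median after the fit. ERK feedback genes lay further from 0 after the fit, at -0.23 against -0.11, and G2 and M phase genes were at -0.15 in both, with 0 of 27 above 0 after it. What part GC content, length or library preparation has in the unadjusted values was not tested.

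Set among the libraries of the other inhibitors, the combination was the most extreme for most of its own leading genes. Of the libraries of the combination, CGI-1746, LU-102 and mock, the combination was highest for 25 of the 32 genes at least 1.5-fold higher and for 44.7% of all genes compared. It was lowest for 7 of the 8 genes at least 1.5-fold lower and for 10.4% of all. Since these genes were chosen on combination over mock, the counts describe them and test nothing. Of the 32, CGI-1746 lay above mock for 31 and LU-102 for 29, while over all 4189 genes CGI-1746 lay above mock for 1811 and LU-102 for 1497. The median log2 ratios of the 32 over mock were 0.76 for the combination, 0.44 for CGI-1746 and 0.37 for LU-102. These comparisons share the mock library by which the 32 were chosen.

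Directly against CGI-1746 alone, 20 genes were at least 1.5-fold higher with the combination (0.477% of 4193 compared) and 6 were lower (0.143%). HSPA1B had a log2 ratio of 1.06 over CGI-1746, HSPA1A 1.01, HSPA6 0.90, MT2A 0.63, DNAJB1 0.62, HMOX1 0.49 and MT1X 0.44, whereas DDIT4 had 0.07, NEAT1 0.10 and CYP1B1 -0.10. Against LU-102 alone, 22 were higher (0.525% of 4193) and 8 lower (0.191%). There HSPA1B had 1.82, HSPA1A 1.73, HSPA6 1.33, HMOX1 1.19, DNAJB1 0.99, MT1X and DDIT4 0.75 and CYP1B1 -0.84. The 3 HSP70 genes were at least 1.5-fold above both single-agent libraries, and CYP1B1 and DDIT4 stood apart from LU-102 but not from CGI-1746 by that size.

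Most genes separated the combination from bortezomib: 3259 of 4198 genes (77.6%) were at least 1.5-fold higher with the combination than with bortezomib and 95 (2.26%) were lower. The HSP70 genes were above mock in both, with log2 ratios for the combination over bortezomib of 1.47 for HSPA1A and 0.42 for HSPA6, and levels of 284 and 99.5 for HSPA1B. CXCL8 was the reverse, at -1.52, with bortezomib above mock and the combination below it.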

How the data were processed

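Total RNA of 5 cultures, 1 per condition, was sequenced by a service company as 150 bp paired reads, per the labels. Partek and hg38 are named in the submitters' processing notes; the sources used here name no version, aligner, annotation, strand setting or normalization. The deposited signal, a least squares mean per gene and library per the file headers, was used as given. A value per read was fitted for each library so that level times gene length of short single-exon RNAs fell near steps of 0.5 reads. It was 58.9 in the combination and 59.4 in mock (53.8 to 59.4 over the 5 libraries). On the same RNAs, 29 of 29 in the combination and 27 of 29 in mock then lay within 0.1 of a step. Since the value was fitted to them, this is a description. The signal behaves as reads over length and a library factor, which no source used here states. Reads behind multi-exon genes are approximate. The file repeats libraries in 7 level columns that were not used, nor were its ratio, p-value and FDR columns.

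Levels were compared as log2(level + 1) over genes that reached 1 in either library, with 2-fold and 1.5-fold as sizes. With 1 library per condition no test was run. Read ratios carry exact Clopper-Pearson intervals at 95%, for counting error only. Coordinates and promoter windows are RefSeq GRCh38.p14, with 4126 symbols matched, and lengths and GC content GENCODE 29, with 4152 matched. Alternatives were other pseudocounts, level minimums and scalings. The fit on GC content, length and level, and the respiratory chain list, were added after the data were seen. The genes compared, the lists and the sizes were all chosen with earlier results of these data known. Genes to name were drawn by a fixed rule: all past 2-fold, and the 20 highest and 20 lowest at a level of 5 or more. It also took the 4 furthest from 0 in each list, and all heat shock, metal response, ERK feedback, receptor and identity genes compared. Others, among them NQO1, TXNRD1, GCLM, DDIT3, PPP1R15B, XPOT, PSMB5, UBB, HSPA5 and MALAT1, were chosen after their values were seen. The rule gave 206 genes, not all of which are written out above. Of the identity genes, only VIM, KRT18 and CD68 are given singly. Python 3.11.15, numpy 2.4.6, pandas 2.3.3, scipy 1.17.1, biopython 1.88 and matplotlib 3.10.9 were used.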

Additional observations from a re-analysis of the deposited data

How the results depend on the processing

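The all-gene median stayed within 0.1 of its value in every alternative run, and of 36 lists 22 to 26 had a median above it, against 23 as reported. Counts past a size moved with the pseudocount. At a pseudocount of 0.1, 14 genes were 2-fold higher and 4 lower, and 78 were 1.5-fold higher and 21 lower; at 5 these were 3 and 0, and 12 and 1. With a level of at least 5, 1 gene was 2-fold lower and 4 were 1.5-fold lower. Scaling to the protein-coding sum gave 15 genes 1.5-fold lower. Among protein-coding genes alone, 1 was 2-fold lower, 19 were 1.5-fold higher and 5 lower. The fit on GC content, length and level, chosen after seeing the data, left 17 genes 1.5-fold higher. Against CGI-1746, genes 1.5-fold higher and lower were 43 and 18 at a pseudocount of 0.1, 5 and 1 at 5, and 13 and 0 at a level of at least 5. Against LU-102 they were 39 and 19, 12 and 0, and 2 lower in the same settings. A heat shock element was in 8.80% of windows at a level of at least 5. No named gene past 2-fold changed sign. At a pseudocount of 5, HSPA6, HMOX1, DNAJB1, CYP1B1, SNORA7B and SCARNA1 came below 2-fold, HMOX1 at 0.97 and CYP1B1 at -0.74; HSPA1A, HSPA1B and SNORA71D remained past it. DNAJB1 also came below 2-fold under scaling to the protein-coding sum, at 0.98, and after the fit on GC content, length and level, at 0.99, and SNORA7B after that fit, at 0.86. The cause was not tested beyond what each alternative does by construction, since a larger pseudocount or minimum weighs on genes with low levels. No paired analysis was possible because each condition has 1 library, and leaving out a library was not possible for the same reason.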
